A study of Mus musculus with 24 samples.

Results

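Matricellular proteins are secreted into the extracellular matrix and act on cells there, through integrins and other receptors and by binding growth factors, rather than mainly by bearing load. A list of 9 genes for such proteins was followed through amputation of the mouse digit: Tnc, Postn, Fn1, Thbs1, Thbs2, Sparc, Tgfbi, Fbn1 and Vcan. The genes were chosen by symbol, from what is known of wound matrix and with earlier results of these data known. Each was taken from the probe set that the array's annotation pairs with that symbol alone. Of the 9, 8 had such a probe set, 1 each, among 14807 genes measured in all, and Fbn1 was not analysed here. One probe set for a gene sums over its transcript, so splice forms, which are known for Fn1, Tnc, Vcan and Postn, were not separated.

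Total RNA came from hindlimb middle digits of wild-type mice aged 3 to 4 months, of the strains MRL/MpJ (MRL) and C57BL/6 (B6). Digits were cut on day 0 and collected on days 3, 7 and 14, and the day 0 digits had not been amputated. MRL is a strain known for closing some wounds with little scar, and the study compared regenerating with intact digits across the 2 strains. There were 24 Affymetrix arrays, 3 labelled as biological replicates for each strain on each day. The labels name the tissue as the second phalanx, and a note on each array names the anterior of the digit. The samples were whole tissue, so fewer cells of a type and less RNA per cell cannot be told apart.

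Many of these genes are known to come up at sites of injury and in the healing stroma. The measured members were not dim in the intact B6 digit. Their mean levels there ran from an intensity of 398 for Vcan to 4818 for Sparc, where array medians were 141.3 to 180.9. Fibronectin (Fn1) forms the provisional matrix on which cells migrate, and versican (Vcan) is a proteoglycan that binds hyaluronan and keeps that matrix loose. Tenascin-C (Tnc) and the thrombospondins (Thbs1 and Thbs2) alter how cells hold on to it, and thrombospondin-1 is also known to activate latent TGF-beta. Periostin (Postn) and the TGF-beta-induced protein (Tgfbi) are relatives that share fasciclin domains, and Sparc is a collagen-binding protein made by osteoblasts and fibroblasts. Fibrillin-1 (Fbn1), like fibronectin, is a structural protein, and it builds the microfibrils that store latent TGF-beta.

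The 6 arrays labelled MRL day 0 and MRL day 3 went against their day labels, and this touches every comparison that uses them. Interleukin 1 beta (Il1b), a cytokine of acute inflammation, averaged 10.21 log2 on the arrays labelled MRL day 0 and 6.01 on B6 day 0 arrays. On the arrays labelled MRL day 3 it averaged 5.98, against 11.78 on B6 day 3 arrays. The hair keratin Krt31 ran the other way, at 7.48 on arrays labelled MRL day 0 and 10.60 on B6 day 0, and at 10.13 on arrays labelled MRL day 3 and 6.38 on B6 day 3. The strain labels were borne out: H2-Ea, an MHC class II gene that C57BL/6 mice do not express, averaged 10.73 to 11.31 in MRL groups and 5.17 to 5.26 in B6 groups. Results are therefore given first for B6 and for MRL on days 7 and 14, whose means hold none of these 6 arrays. The spread behind every test came from 1 fit over all 24 arrays, the 6 included. When the comparisons that do not need the 6 were fitted without them, the call of 1 member changed, that of Tnc between days 7 and 14 of B6. Tissue markers fitted a digit with skin and bone, with Krt14 at 12.80 to 13.35 in the group means and the bone sialoprotein gene Ibsp at 7.75 to 12.18.

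Promoters of 4 members are shown because they stand for the 2 time courses described next: Tnc and Vcan rose by day 3 in B6 digits, and Postn and Thbs2 made most of their rise after it. Each is 250 bases before to 50 bases after a transcription start, from RefSeq on GRCm38.p6, written 5′ to 3′ on the gene's strand. They lie at chr4:64046966-64047265 on the minus strand for Tnc, chr13:89742463-89742762 on the minus strand for Vcan, chr3:54360857-54361156 on the plus strand for Postn and chr17:14694213-14694512 on the minus strand for Thbs2. Tnc and Postn each have 2 starts in the table, and 1 of each is shown. Capitals mark matches to the motifs searched, on either strand.
Tnc: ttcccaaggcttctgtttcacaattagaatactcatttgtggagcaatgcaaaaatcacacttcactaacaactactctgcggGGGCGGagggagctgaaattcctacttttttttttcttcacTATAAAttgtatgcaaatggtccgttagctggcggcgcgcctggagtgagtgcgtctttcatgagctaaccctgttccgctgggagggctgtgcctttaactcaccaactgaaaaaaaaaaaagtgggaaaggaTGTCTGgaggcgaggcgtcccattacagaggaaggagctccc
Vcan: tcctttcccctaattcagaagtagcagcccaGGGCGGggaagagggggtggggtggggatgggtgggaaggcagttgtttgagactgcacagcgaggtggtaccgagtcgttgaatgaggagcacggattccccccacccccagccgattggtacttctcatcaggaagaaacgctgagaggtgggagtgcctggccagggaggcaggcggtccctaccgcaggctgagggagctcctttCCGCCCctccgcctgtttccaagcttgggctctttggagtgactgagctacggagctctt
Postn: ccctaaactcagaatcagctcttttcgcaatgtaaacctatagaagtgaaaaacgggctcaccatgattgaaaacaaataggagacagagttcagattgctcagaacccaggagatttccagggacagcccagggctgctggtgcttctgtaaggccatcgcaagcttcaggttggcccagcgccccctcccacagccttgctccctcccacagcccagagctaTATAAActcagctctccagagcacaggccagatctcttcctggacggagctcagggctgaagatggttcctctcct
Thbs2: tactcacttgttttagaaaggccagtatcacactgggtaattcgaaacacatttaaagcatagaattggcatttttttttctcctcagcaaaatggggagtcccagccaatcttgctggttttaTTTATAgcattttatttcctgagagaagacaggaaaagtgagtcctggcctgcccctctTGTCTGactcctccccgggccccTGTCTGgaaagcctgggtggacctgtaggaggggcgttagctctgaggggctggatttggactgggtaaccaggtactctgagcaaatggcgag

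The motifs searched were AP-1 (TGANTCA), TEAD (GGAATG), SMAD (CAGACA), Sp1 (GGGCGG) and the TATA box (TATAAA), on both strands, and no 2 of them share letters in the matches found. Of all 32851 promoters in the table, 7.81% held the AP-1 letters, 14.7% TEAD, 21.0% SMAD, 35.7% Sp1 and 13.6% the TATA box. Positions count from the start site as 1. The Postn promoter shown held TATAAA at position -26, and that of its other start held none of the letters searched. The Tnc promoter shown held TATAAA at position -126 with GGGCGG at -167. The reverse complement of the SMAD letters, TGTCTG, stood in the Tnc promoter at position 9 and in the Thbs2 promoter at -67 and -44. That of the TATA box, TTTATA, stood in the Thbs2 promoter at -126. The window of the other Tnc start, which overlaps the one shown, held CAGACA at 40 and TGTCTG at -71, with TATAAA at -205 and GGGCGG at -246. The Vcan promoter held the Sp1 letters at position -219 and their reverse complement at -10. Of the 6 measured members with a promoter in the table, Sparc held TGTCTG at -36 and 15. Another, Tgfbi, held GGGCGG at -124 and its reverse complement at 16. No AP-1 or TEAD letters were found in these windows. Such matches describe the letters only, and binding was not measured.

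In B6 digits all 8 members rose by day 7, and they did so on 2 schedules. Tnc, Thbs1, Vcan and Tgfbi were already well above the intact digit on day 3, while Thbs2, Fn1 and Sparc did not pass the test on that day and rose between days 3 and 7. Postn rose slightly by day 3 and strongly after it. By day 14 the RNA of 7 members was still raised, and Tgfbi no longer passed the test. Values below are log2 intensities, differences are log2 of the later over the earlier day with their standard errors (SE), and p-values are limma's, adjusted by the Benjamini-Hochberg method over 15928 probe sets.

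**Figure D1:**
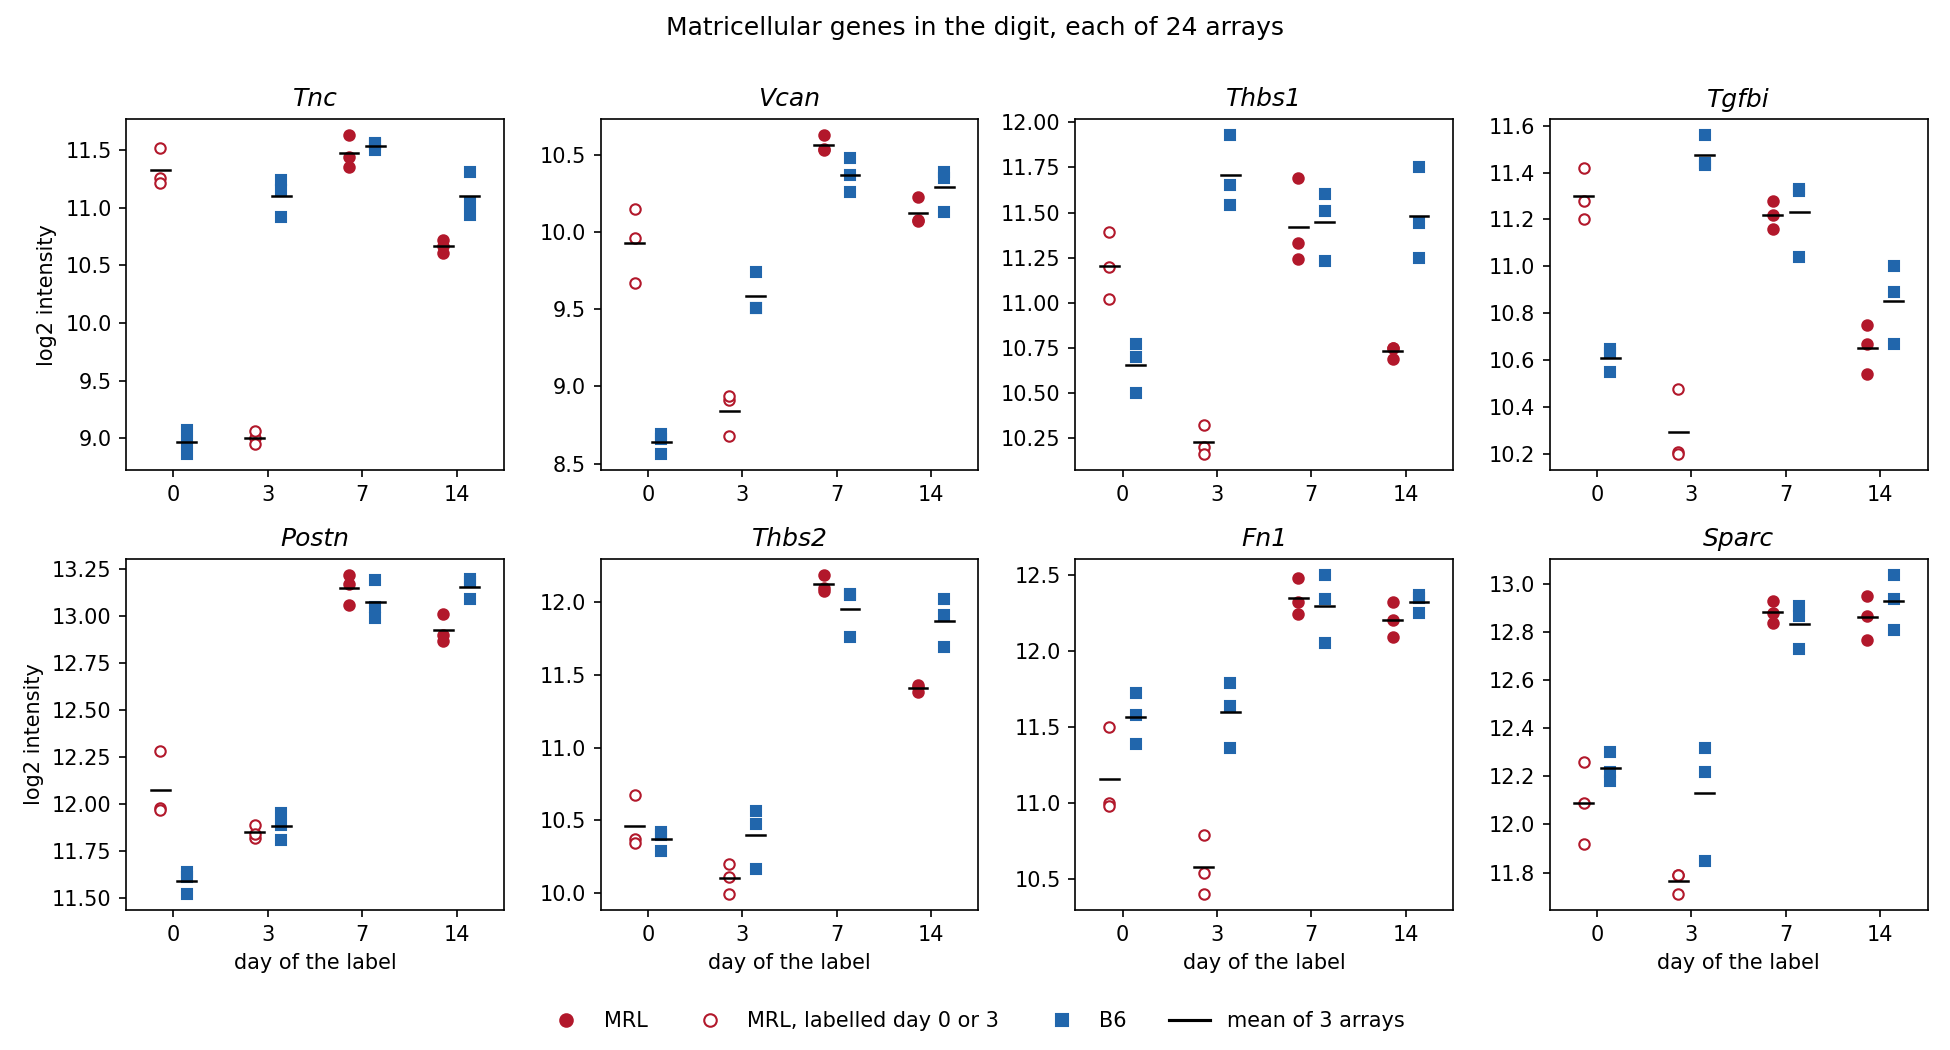
Each point is 1 array: the log2 intensity of a member (vertical axis) by strain and labelled day (horizontal axis), with MRL circles left of B6 squares and bars at the means of 3 arrays. Open circles are the arrays labelled MRL day 0 and day 3. In B6, Tnc stood near 8.97 on day 0 and near 11.54 on day 7.

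Tnc made the widest step. Its 3 B6 arrays read 8.97, 8.86 and 9.07 on day 0, 11.24, 11.15 and 10.92 on day 3, 11.56, 11.55 and 11.50 on day 7, and 10.94, 11.31 and 11.04 on day 14. The lowest array of a later day, at 10.92, was above the highest of the intact digit, at 9.07. The difference from day 0 was 2.14 on day 3, a 4.40-fold step (SE 0.11, adjusted p = 3.93e-12). It was 2.57 on day 7, or 5.94-fold (SE 0.11, adjusted p = 1.18e-12), and 2.13 on day 14 (SE 0.11, adjusted p = 4.63e-11).

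Versican, the hyaluronan-binding proteoglycan, climbed in steps. The Vcan arrays of B6 read 8.56, 8.69 and 8.66 on day 0, 9.51, 9.51 and 9.74 on day 3, 10.48, 10.37 and 10.26 on day 7, and 10.13, 10.39 and 10.35 on day 14. Days 0, 3 and 7 stood clear of one another, and days 7 and 14 overlapped. The differences from day 0 were 0.95 on day 3 (adjusted p = 8.78e-07), 1.73 on day 7 (adjusted p = 2.52e-10) and 1.65 on day 14 (adjusted p = 1.65e-09), each with an SE of 0.11.

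Thrombospondin-1, which platelets also carry and release, was highest on day 3. The Thbs1 arrays of B6 read 10.77, 10.50 and 10.70 on day 0, 11.65, 11.54 and 11.93 on day 3, 11.23, 11.51 and 11.60 on day 7, and 11.25, 11.75 and 11.44 on day 14. The later days overlapped one another and none overlapped the intact digit. The rise over day 0 was 1.05 on day 3, or 2.07-fold (adjusted p = 5.70e-06), 0.79 on day 7 (adjusted p = 1.54e-04) and 0.82 on day 14 (adjusted p = 1.32e-04), each with an SE of 0.14.

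Tgfbi, which encodes an adhesive protein that TGF-beta induces, rose early and had its highest B6 mean on day 3. Its B6 arrays read 10.65, 10.55 and 10.63 on day 0, 11.56, 11.44 and 11.43 on day 3, 11.32, 11.04 and 11.33 on day 7, and 10.67, 11.00 and 10.89 on day 14. The day 14 arrays lay between those of day 7 and those of the intact digit. The difference from day 0 was 0.87 on day 3 (adjusted p = 1.03e-06) and 0.62 on day 7 (adjusted p = 6.09e-05), each with an SE of 0.10. On day 14 it was 0.24 (SE 0.10, adjusted p = 0.0709), a difference that passed, at 0.34 with adjusted p = 0.0233, when B6 day 14 replicate 1 was left out.

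Thbs2 is known for its part in collagen fibril assembly and as an inhibitor of new vessels, and it was the clearest late riser. Its B6 arrays read 10.29, 10.42 and 10.40 on day 0, 10.56, 10.47 and 10.16 on day 3, 12.06, 11.76 and 12.05 on day 7, and 11.69, 12.02 and 11.91 on day 14. Days 0 and 3 overlapped, and days 7 and 14 lay more than 1 log2 unit above them. The difference was 0.02 on day 3 (95% interval -0.22 to 0.26, adjusted p = 0.883), 1.58 on day 7 (adjusted p = 1.35e-09) and 1.50 on day 14 (adjusted p = 9.24e-09).

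Periostin, which binds collagen and supports its crosslinking, followed a like course with a small early step. Its B6 arrays read 11.52, 11.64 and 11.61 on day 0, 11.81, 11.89 and 11.95 on day 3, 13.19, 12.99 and 13.05 on day 7, and 13.20, 13.18 and 13.09 on day 14. The Postn difference was 0.30 on day 3 (SE 0.09, adjusted p = 0.00815), 1.49 on day 7 (adjusted p = 5.43e-11) and 1.57 on day 14 (adjusted p = 8.81e-11). The early step did not pass under cyclic loess scaling of the arrays, where it was 0.16 (adjusted p = 0.133), or when the arrays of the 2 days were fitted alone (adjusted p = 0.0517).

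Fibronectin and Sparc, like Thbs2, did not pass the test on day 3 and rose by day 7. The Fn1 arrays of B6 read 11.72, 11.39 and 11.58 on day 0, 11.64, 11.79 and 11.36 on day 3, 12.34, 12.05 and 12.50 on day 7, and 12.25, 12.37 and 12.35 on day 14. The Sparc arrays read 12.22, 12.18 and 12.30 on day 0, 12.32, 12.22 and 11.85 on day 3, 12.87, 12.73 and 12.91 on day 7, and 13.04, 12.94 and 12.81 on day 14. In each gene days 0 and 3 overlapped, and every array of days 7 and 14 was above both. On day 3 the differences were 0.03 for Fn1 (95% interval -0.27 to 0.34) and -0.10 for Sparc (95% interval -0.33 to 0.12). On day 7 they were 0.73 for Fn1 (adjusted p = 4.26e-04) and 0.60 for Sparc (adjusted p = 1.26e-04), and on day 14 they were 0.76 (adjusted p = 3.85e-04) and 0.69 (adjusted p = 4.08e-05).

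**Figure D2:**
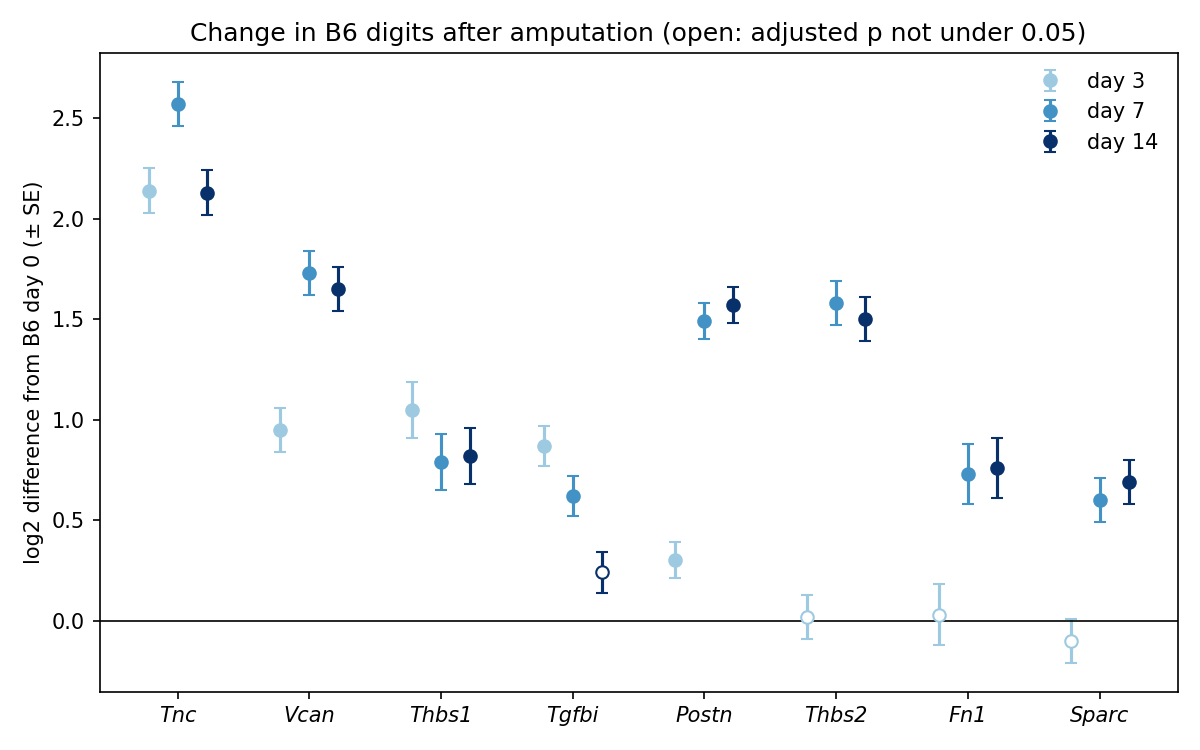
Difference in log2 intensity from the intact B6 digit (vertical axis) for each member on days 3, 7 and 14, with 3 arrays a day, bars of 1 SE and open points where the adjusted p was not under 0.05. Thbs2, Fn1 and Sparc lie near 0 on day 3 and between 0.60 and 1.58 on day 7.

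Counted together, 5 of the 8 members were called higher on day 3, where 17.4% of all probe sets were called higher. On day 7 it was 8 of 8, where 23.5% of all probe sets were, and on day 14 it was 7 of 8, where 22.8% were. No member was called lower on any of these days. The median difference of the 8 was 0.58, 1.14 and 1.16 on days 3, 7 and 14, and that of all probe sets was -0.08, -0.01 and -0.01.

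Set directly against day 3, day 7 of B6 was higher for 6 of 8 members, where 17.0% of all probe sets were called higher. The widest steps were those of Thbs2 (1.56, adjusted p = 9.38e-09) and Postn (1.19, adjusted p = 8.81e-09), and Vcan, Sparc, Fn1 and Tnc also rose. The Tnc step of 0.43 (adjusted p = 0.00589) was 0.29 under cyclic loess scaling (adjusted p = 0.0506) and 0.26 with each array centred on its median (adjusted p = 0.0800). Thbs1 and Tgfbi differed by -0.26 and -0.25 and did not pass (adjusted p = 0.216 and 0.0987). Under those 2 scalings both were called lower, Thbs1 by -0.40 and -0.43 and Tgfbi by -0.39 and -0.42.

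Between days 7 and 14 the members of B6 were mostly level. Only Tnc passed the test, lower on day 14 by -0.44 (SE 0.11, adjusted p = 0.0336), 1 of 8 members where 0.402% of all probe sets were called lower. This call was lost without the 6 arrays labelled MRL day 0 and day 3 (adjusted p = 0.0556), when the 2 days were fitted alone (adjusted p = 0.165), and without any 1 of the arrays but B6 day 14 replicate 2 (adjusted p between 0.0840 and 0.200). Tgfbi differed by -0.38 (adjusted p = 0.0674), and it passed with an offset of 16, with array weights and under both other scalings, and without B6 day 7 replicate 2 or B6 day 14 replicate 2 (adjusted p between 0.00327 and 0.0477). The other 6 members differed by -0.08 to 0.09.

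MRL digits on day 7 carried the members at levels close to those of B6. The MRL arrays of day 7 read 11.63, 11.44 and 11.35 for Tnc, against 11.56, 11.55 and 11.50 in B6, and 13.06, 13.17 and 13.22 for Postn, against 13.19, 12.99 and 13.05 in B6. Fn1 read 12.32, 12.24 and 12.48 in MRL, against 12.34, 12.05 and 12.50 in B6. Thbs1 read 11.24, 11.33 and 11.69 in MRL, against 11.23, 11.51 and 11.60 in B6. In these 4 genes the strains overlapped. Sparc and Tgfbi overlapped too, with means of 12.88 ± 0.04 in MRL and 12.84 ± 0.10 in B6 for Sparc, and 11.22 ± 0.06 in MRL and 11.23 ± 0.16 in B6 for Tgfbi (SD, n = 3 each). In 2 genes every MRL array was above every B6 array. Thbs2 read 12.10, 12.08 and 12.19 in MRL and 12.06, 11.76 and 12.05 in B6. Vcan read 10.54, 10.63 and 10.53 in MRL and 10.48, 10.37 and 10.26 in B6. How many of all probe sets were separated in this way was not counted, in this or any other comparison. With 3 arrays against 3, no exact permutation p can fall below 0.1.

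None of the 8 passed the limma test of MRL against B6 on day 7, adjusted or at an unadjusted p under 0.05, where 9.46% of all probe sets were called in either direction. The differences ran from -0.06 for Tnc (95% interval -0.29 to 0.16) to 0.16 for Thbs2 (-0.07 to 0.40) and 0.19 for Vcan (-0.04 to 0.43). The widest interval was that of Fn1, from -0.26 to 0.36.

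On day 14 the strains parted for 3 members, all lower in MRL. Thbs1 read 10.75, 10.69 and 10.75 in MRL digits, against 11.25, 11.75 and 11.44 in B6 digits. Thbs2 read 11.42, 11.38 and 11.43 in MRL, against 11.69, 12.02 and 11.91 in B6. Tnc read 10.72, 10.61 and 10.67 in MRL, against 10.94, 11.31 and 11.04 in B6. In each of the 3 genes no MRL array reached the lowest B6 array.

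The difference, MRL minus B6, was -0.75 for Thbs1, a size of 1.68-fold (SE 0.14, adjusted p = 0.00222). It was -0.46 for Thbs2 and -0.43 for Tnc (SE 0.11 and adjusted p = 0.0173 for each). Lower calls were made for 3 of 8 members, where 4.40% of all probe sets were called lower. The Thbs1 call was kept under every alternative run. The calls of Tnc and Thbs2 ended without B6 day 14 replicate 2 (adjusted p = 0.135 and 0.113), without MRL day 14 replicate 2 (adjusted p = 0.0810 and 0.0729) and with the day 14 arrays fitted alone (adjusted p = 0.126 and 0.0837). That of Tnc also ended with each array centred on its median (adjusted p = 0.0699), and that of Thbs2 without B6 day 14 replicate 3 or MRL day 14 replicate 1 (adjusted p = 0.0612 and 0.0510).

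The other 5 members did not pass between the strains on day 14. Postn read 13.01, 12.87 and 12.90 in MRL and 13.20, 13.18 and 13.09 in B6, without overlap, and differed by -0.23 (95% interval -0.41 to -0.05, adjusted p = 0.138). Tgfbi differed by -0.20, Vcan by -0.16, Fn1 by -0.12 and Sparc by -0.06, and in each of these the arrays of the strains overlapped.

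Within MRL, 5 of 8 members fell between days 7 and 14, where 1.79% of all probe sets were called lower. Tnc fell by 0.81 (SE 0.11, adjusted p = 4.85e-05) and Thbs2 by 0.71 (SE 0.11, adjusted p = 5.07e-04). Thbs1 fell by 0.69 (SE 0.14, adjusted p = 0.00659), Tgfbi by 0.57 (SE 0.10, adjusted p = 0.00182) and Vcan by 0.44 (SE 0.11, adjusted p = 0.0303). The arrays of the 2 days did not overlap in these 5 genes, nor in Postn, which was not called. The share of all probe sets separated in this way was not counted. Postn, Fn1 and Sparc were not called, with differences of -0.23, -0.14 and -0.02. The Thbs1 call was lost without MRL day 7 replicate 3 (adjusted p = 0.0649). The Vcan call was lost with the arrays of the 2 days alone (adjusted p = 0.0801) and without any 1 of 5 of the 6 arrays, all but MRL day 14 replicate 1 (adjusted p between 0.0626 and 0.131).

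Whether this change differed between MRL and B6 was tested directly, and none of the 8 members passed, where 0.264% of all probe sets did. At an unadjusted p under 0.05 there were 5 members, where 6.83% of all probe sets had such a p. The change from day 7 to day 14 was lower in MRL by -0.73 for Thbs1 (SE 0.20, adjusted p = 0.232) and by -0.63 for Thbs2 (SE 0.16, adjusted p = 0.159). With array weights these were -0.78 and -0.53, and both passed (adjusted p = 0.0277 and 0.0413). This comparison and those of MRL with B6 on days 7 and 14 use the same arrays.

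**Figure D3:**
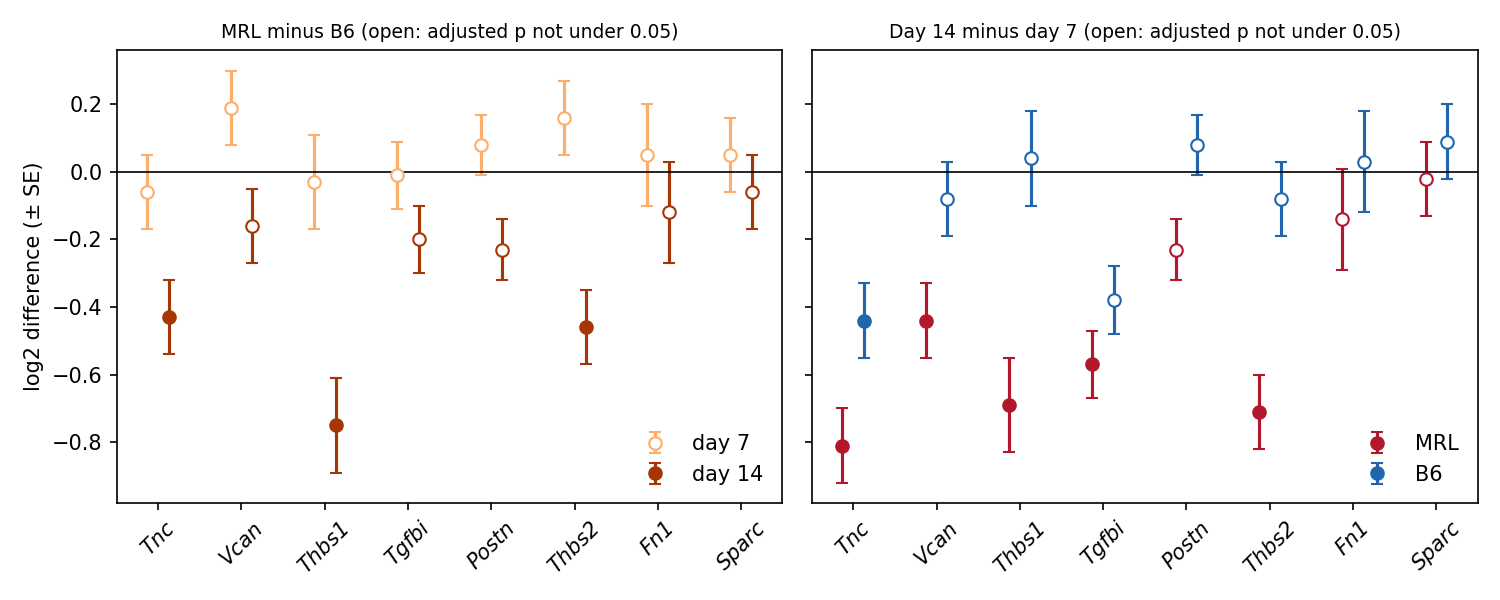
Left, the log2 difference MRL minus B6 for each member on day 7 and day 14. Right, the log2 difference day 14 minus day 7 in MRL and in B6. Bars are 1 SE, each group has 3 arrays, and open points have an adjusted p not under 0.05. On day 14 Thbs1, Thbs2 and Tnc lie at -0.75, -0.46 and -0.43 between the strains.

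Markers of other cell types moved beside these results. For comparison, 17.4% of all probe sets were called higher in B6 by day 3. In MRL against B6, 6.27% were called lower on day 7 and 4.40% on day 14. All 9 macrophage markers measured rose in B6 by day 3, and their summed intensity was 11527 to 14367 on day 3 and 5187 to 6322 on day 0. On day 14, 8 of the 9 were lower in MRL, with sums of 4856 to 6008 in MRL and 8191 to 9078 in B6, and on day 7, where no member was called, 6 of 9 were lower in MRL. Of 4 platelet markers, Ppbp and Pf4 rose by day 3, by 2.09 and 1.30, and the sum was 2298 to 2989 on day 3 and 1035 to 1290 on day 0. Their part in the early rise of Thbs1 and Tgfbi, and in the strain difference of day 14, was not tested.

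Most fibroblast markers rose by day 7 and not by day 3. Beside the counts that follow, 17.4%, 23.5% and 22.8% of all probe sets were called higher on days 3, 7 and 14 of B6. Called lower were 28.0%, 19.4% and 14.2%. In MRL against B6 on day 14, 4.40% were called lower. In B6, 2 of 11 measured fibroblast and myofibroblast markers rose and 3 fell by day 3, and 8 rose and none fell by day 7. Those that fell on day 3 were the contractile genes Cnn1 and Tagln, by 0.85 and 0.82, and the dermal matrix gene Dpt, by 0.46. The sum of the 11 was 10049 to 11036 on day 0, 9359 to 11094 on day 3, 18317 to 18936 on day 7 and 16452 to 17257 on day 14. The cadherin Cdh11 rose by 2.28 and the stromal protease Fap by 1.64 on day 7. On day 14, 1 of the 11 was lower in MRL, Cdh11 by -0.45, and the sums were 13705 to 16951 in MRL and 16452 to 17257 in B6. Endothelial markers rose in B6 for 5 of 7 by day 3, while Vwf fell by 0.69, and for 6 of 7 by day 7. Of the 7, 3 were lower in MRL on day 14, with sums of 2313 to 2794 in MRL and 3131 to 3409 in B6. Of 10 bone and cartilage markers 10 rose in B6 by day 14, and on day 14 none was called between the strains. Epidermal markers were called lower for 2 of 7 on each later day of B6, on day 3 near the share of all probe sets. For muscle markers 1 of 4 was called, lower on day 14. The part of these cell types in the members' changes was not tested.

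Relatives of the members moved in both directions. Of 17 genes of the tenascin, thrombospondin, SPARC, fibrillin and lectican families, 1 rose and 8 fell in B6 by day 3, with a median of -0.25, where 28.0% of all probe sets were called lower. By day 7, 9 rose and 5 fell, with a median of 0.65, and by day 14 the counts were 9 and 3, with a median of 0.44. On those days 19.4% and 14.2% of all probe sets were called lower. Called higher on days 3, 7 and 14 were 17.4%, 23.5% and 22.8% of all probe sets. Tenascin-N (Tnn), a tenascin of bone surfaces, rose by 2.94 on day 7 and differed by -0.07 on day 3. The cartilage proteoglycan aggrecan (Acan) rose by 1.81, fibrillin-2 (Fbn2) by 1.79 and Thbs4 by 1.56 on day 7. Tenascin-X (Tnxb), which organises collagen in resting dermis, went the other way, lower by -1.81 on day 3 and -1.14 on day 7.

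Of 17 other matricellular and adhesive glycoproteins measured, 4 rose and 6 fell by day 3, 9 rose and 1 fell by day 7, and 8 rose and 3 fell by day 14, with medians of -0.16, 0.49 and 0.44. Of all probe sets, 17.4%, 23.5% and 22.8% were called higher on those days, and 28.0%, 19.4% and 14.2% lower. The integrin-binding protein gene Edil3 rose by 2.55 and Ccn4, of the CCN family, by 1.41 on day 7. Ccn3, of the same family, fell by 1.94 on day 3. On day 14, 2 of the 17 were lower in MRL than in B6, Ccn1 by -1.11 and Ccn4 by -0.52. In that comparison 4.40% of all probe sets were called lower.

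Receptors of the members changed from day 3. Of 15 measured, 8 rose and 4 fell by day 3, 7 rose and 1 fell by day 7, and 7 rose by day 14, with medians of 0.26, 0.31 and 0.26. The shares of all probe sets were 17.4%, 23.5% and 22.8% called higher and 28.0%, 19.4% and 14.2% called lower. Integrin beta 1 (Itgb1), the shared chain of many matrix receptors, rose by 1.07 on day 3 and 1.51 on day 7. The alpha 5 chain (Itga5), its partner in the fibronectin receptor, rose by 0.92 and 0.79 on those days, and the beta 3 chain (Itgb3) rose by 1.47 on day 7. On day 7, 3 of the 15 were lower in MRL than in B6, where 6.27% of all probe sets were called lower. Among them were Itgb3 by -0.85 and Itgav by -0.50. On day 14 none was called, where 5.27% of all probe sets were.

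The TGF-beta list held ligands, receptors, latency proteins and microfibril proteins, 16 of them measured. By day 3, 4 rose and 8 fell, by day 7, 8 rose and 2 fell, and by day 14, 9 rose and 1 fell, with medians of -0.26, 0.33 and 0.39. Among all probe sets 17.4%, 23.5% and 22.8% were called higher on those days, and 28.0%, 19.4% and 14.2% lower. The receptor Tgfbr1 rose by 1.56 and the ligand Tgfb3 by 1.21 on day 7. The latent TGF-beta binding protein gene Ltbp4 fell by 1.98 on day 3 and 1.48 on day 7, and the microfibril-associated Mfap4 fell by 1.94 on day 3. The microfibril protein gene Mfap5 rose by 1.31 on day 7. On day 14 none of the 16 was called between the strains, where 5.27% of all probe sets were.

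**Figure D4:**
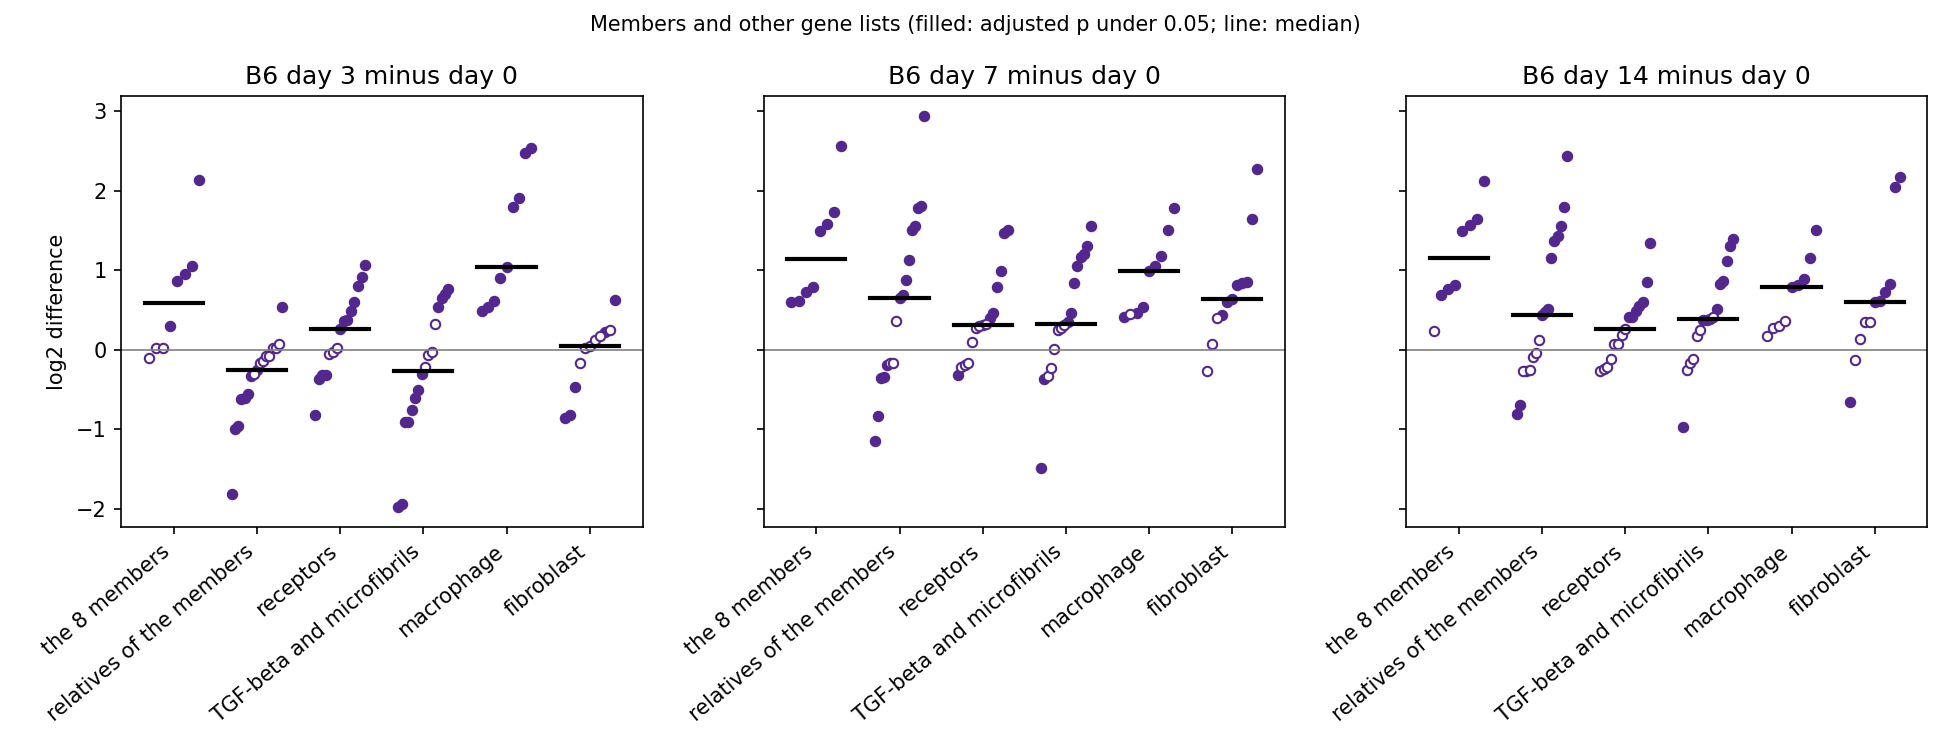
Each point is a gene: its log2 difference from the intact B6 digit (vertical axis) on days 3, 7 and 14, for the 8 members and 5 other lists, with bars at the medians and filled points where the adjusted p was under 0.05. On day 3 the members' median is 0.58 and that of the macrophage markers 1.04. On day 7 the medians are 1.14 and 0.99.

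Some genes outside the list also changed late in MRL, where 1.79% of all probe sets were called lower and 1.75% higher. Between days 7 and 14 of MRL, Tnn fell by 1.66, Acan by 1.65 and Fbn2 by 1.38, 3 of 17 relatives, and none rose. Of the other glycoproteins 3 of 17 fell, among them Emilin1 by 0.77, and Ccn3 rose by 1.08. Of bone and cartilage markers, Matn3 fell by 2.82 and Hapln1 fell by 2.16, 4 of 10 in all, while Phex rose by 1.93 and Dmp1 by 1.59. No macrophage marker was called in this comparison, where 3.54% of all probe sets were. Their summed intensity was 6258 to 7214 on day 7 of MRL and 4856 to 6008 on day 14. The median difference of these markers was -0.27, against 0.01 for all probe sets. Their part in the members' fall was not tested.

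The arrays labelled MRL day 0 and day 3 are given as labelled. Tnc read 11.26, 11.52 and 11.21 on the arrays labelled MRL day 0, against 8.97, 8.86 and 9.07 on B6 day 0. It read between 8.95 and 9.06 on the 3 arrays labelled MRL day 3, against 11.24, 11.15 and 10.92 on B6 day 3. The arrays labelled day 0 lay near those of B6 day 3, and those labelled day 3 near those of B6 day 0. Vcan read 8.91, 8.94 and 8.68 on the arrays labelled MRL day 3 and 9.96, 10.15 and 9.67 on those labelled MRL day 0. Thbs1 read 10.20, 10.16 and 10.32 on the arrays labelled MRL day 3 and 11.20, 11.39 and 11.02 on those labelled MRL day 0. Tgfbi read 10.48, 10.21 and 10.20 on the arrays labelled MRL day 3 and 11.28, 11.42 and 11.20 on those labelled MRL day 0. In these 3 genes too the 2 labels did not overlap.

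As labelled, 7 of 8 members were lower on MRL day 3 than on MRL day 0, where 7.15% of all probe sets were called lower. The difference was -2.33 for Tnc (adjusted p = 1.15e-11), -1.09 for Vcan, -1.01 for Tgfbi and -0.98 for Thbs1. Fn1, Thbs2 and Sparc were lower by -0.59, -0.36 and -0.33, and Postn differed by -0.23 (adjusted p = 0.0682). Postn was called lower under cyclic loess scaling, median centring, the offset of 16 and array weights (adjusted p between 0.00708 and 0.0454). Without the array labelled MRL day 0 replicate 2 the calls of Fn1, Thbs2 and Sparc ended (adjusted p = 0.0566, 0.167 and 0.170), and 4 members stayed called. That of Thbs2 also ended without the array labelled MRL day 3 replicate 2 or 3, and that of Sparc without MRL day 0 replicate 1 or any array labelled MRL day 3 (adjusted p between 0.0649 and 0.121). With the 2 groups fitted alone the calls of Thbs2 and Sparc ended too (adjusted p = 0.0608 and 0.0627).

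Against B6 with the same label, 5 members were higher and 1 lower on the arrays labelled MRL day 0, where 17.9% and 22.1% of all probe sets were called higher and lower. On the arrays labelled MRL day 3, 7 members were lower than on B6 day 3, where 13.6% of all probe sets were. The lower call was that of Fn1, at -0.40. It ended without MRL day 0 replicate 1 or 3 or B6 day 0 replicate 1 or 3 (adjusted p between 0.0828 and 0.154). It also ended under median centring, with array weights and with the 2 groups fitted alone (adjusted p = 0.077, 0.0575 and 0.0727). Under cyclic loess scaling Sparc was called lower too on the arrays labelled MRL day 0, by -0.38 (adjusted p = 0.00346). Of the 7 lower calls, that of Sparc ended without B6 day 3 replicate 1 (adjusted p = 0.0585), and that of Thbs2 without MRL day 3 replicate 2 or 3 or B6 day 3 replicate 1 or 2 (adjusted p between 0.0821 and 0.177). Both calls also ended with the 2 groups fitted alone (adjusted p = 0.0678 for Sparc and 0.119 for Thbs2). Across the labels the differences were smaller for the early members. The arrays labelled MRL day 0 differed from B6 day 3 in 1 member, Thbs1, lower by -0.50 (adjusted p = 0.0261), where 4.06% of all probe sets were called lower. That call was lost without the array labelled MRL day 0 replicate 1 or 3 or B6 day 3 replicate 3 (adjusted p between 0.0759 and 0.107). It was also lost with array weights (adjusted p = 0.0994) and with the 2 groups fitted alone (adjusted p = 0.0937). Vcan differed by 0.34 (adjusted p = 0.051) and Fn1 by -0.44 (adjusted p = 0.062), neither called. Some alternatives called them, Vcan higher by 0.47 with array weights (adjusted p = 0.0078) and Fn1 lower by -0.48 under median centring (adjusted p = 0.0169). Under cyclic loess scaling Tgfbi was called lower too, by -0.28 (adjusted p = 0.0277). The arrays labelled MRL day 3 differed from B6 day 0 by 0.04 in Tnc and 0.20 in Vcan, neither called.

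In that comparison Postn was higher by 0.26 (adjusted p = 0.0247), 1 member where 18.0% of all probe sets were called higher, and it was -0.02 under cyclic loess scaling. Fn1, Sparc, Thbs1 and Tgfbi were lower, 4 members where 12.3% of all probe sets were called lower. Fn1 read 10.40, 10.79 and 10.54 on the arrays labelled MRL day 3, against 11.72, 11.39 and 11.58 on B6 day 0, a difference of -0.99 (adjusted p = 4.95e-05). Sparc differed by -0.47 (adjusted p = 0.00225). The calls of Postn, Thbs1 and Tgfbi each ended without 4 of the 6 arrays in turn, with adjusted p between 0.0531 and 0.0970, and those of Fn1 and Sparc did not end without any 1 array.

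With the arrays labelled MRL day 3 as the baseline, MRL day 7 was higher for 8 of 8 members, where 9.68% of all probe sets were called higher, and MRL day 14 for 8 of 8, where 5.59% were. On day 7 the differences ran from 0.93 for Tgfbi to 2.47 for Tnc, with 2.02 for Thbs2 and 1.77 for Fn1. On day 14 they ran from 0.36 for Tgfbi to 1.66 for Tnc, and Thbs1 was at 0.50. The day 14 calls of Thbs1 and Tgfbi each ended without 4 of the 6 arrays in turn (adjusted p between 0.0514 and 0.112).

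With the arrays labelled MRL day 0 as the baseline, MRL day 7 was higher for 5 members, where 10.7% of all probe sets were called higher. These were Thbs2 by 1.66, Fn1 by 1.19, Postn by 1.07, Sparc by 0.80 and Vcan by 0.64, and Tnc, Thbs1 and Tgfbi differed by 0.14, 0.21 and -0.08. MRL day 14 was higher for 4 members, where 10.5% of all probe sets were called higher, and lower for Tnc, Tgfbi and Thbs1, by -0.67, -0.65 and -0.48, where 7.23% were called lower. The Thbs1 call ended without 4 of the 6 arrays in turn (adjusted p between 0.0575 and 0.110).

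The change from day 0, as labelled, was also tested between the strains, and all 3 of these tests rest on the arrays that go against their labels. For day 3, 6 members had a lower change in MRL than in B6, where 16.4% of all probe sets did. For day 7 it was 5 members, where 17.2% of all probe sets did, and for day 14 it was 6 members, where 15.6% did. Tnc had the widest difference in each, at -4.47, -2.43 and -2.80. Several of the narrower calls ended under an alternative. Under cyclic loess scaling those of Postn (-0.045, adjusted p = 0.813) and Thbs1 (-0.27, adjusted p = 0.281) ended for day 7, and that of Thbs2 (-0.27, adjusted p = 0.181) for day 14. Under that scaling Fn1 and Sparc were called with a higher change in MRL, by 0.79 and 0.56 for day 7 and by 0.58 and 0.40 for day 14. Fn1 was also called higher for day 7, by 0.62, without the array labelled MRL day 0 replicate 2. For day 3, Thbs2 and Sparc gained a call of a lower change in MRL under median centring, by -0.605 and -0.447 (adjusted p = 0.00129 and 0.00445). They also gained it with array weights (adjusted p = 0.00519 and 0.0284) and without B6 day 3 replicate 3 (adjusted p = 0.0145 and 0.0355). The Thbs1 call for day 7 ended without B6 day 0 replicate 2, B6 day 7 replicate 2 or 3, the array labelled MRL day 0 replicate 1 or 2, or MRL day 7 replicate 1 or 2 (adjusted p between 0.0569 and 0.0958). The Fn1 call for day 3 ended without B6 day 0 replicate 2, B6 day 3 replicate 2, or the arrays labelled MRL day 0 replicate 2 or MRL day 3 replicate 1 (adjusted p between 0.0569 and 0.0699). The Thbs2 call for day 14 ended without the array labelled MRL day 0 replicate 2 (adjusted p = 0.0507).

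Across all 8 groups as labelled, the members differed in the group that was highest. B6 day 7 was the highest group for Tnc, MRL day 7 for Fn1, Thbs2 and Vcan, B6 day 14 for Postn and Sparc, and B6 day 3 for Thbs1 and Tgfbi. The arrays labelled MRL day 3 were the lowest group for 5 members and B6 day 0 for Tnc, Vcan and Postn. The group means spanned 2.57 in Tnc, 2.02 in Thbs2 and 1.93 in Vcan, and 1.17 in Sparc and 1.19 in Tgfbi. For Tnc the 5 highest groups overlapped each with the next. MRL day 14, at 10.66, lay apart below them, and the arrays labelled MRL day 3, at 8.95 to 9.06, and B6 day 0, at a mean of 8.97, lay apart below it. For Fn1 and Sparc the day 7 and day 14 groups of the strains overlapped each with the next, and all lay above every other group without overlap.

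The correlation of group means between members, over 8 groups, was 0.970 for Fn1 and Sparc, 0.967 for Postn and Thbs2, 0.918 for Tnc and Vcan and 0.901 for Thbs1 and Tgfbi. Vcan, which rose early in B6, was at 0.904 with Postn and 0.863 with Thbs2, and at 0.676 with Thbs1 and 0.568 with Tgfbi. The lowest of the 28 pairs was that of Postn and Tgfbi, the 2 fasciclin proteins, at 0.213. Among 2345 genes whose group means spanned at least 1 log2 unit, those most like Postn were Aspn, Cdh11 and Lamb1, with correlations of 0.995, 0.989 and 0.983, and those most like Sparc were Tmem119, Col1a1 and Col1a2, at 0.993, 0.991 and 0.989. For Thbs2 they were P3h3, Fkbp9 and Mmp23, at 0.993, 0.992 and 0.991, and for Fn1 they were Sparc, Sh3pxd2b and Bmp1, at 0.970, 0.968 and 0.962. Tnc was most like Bdkrb1, Elk3 and Cdh5, at 0.993, 0.991 and 0.980, and Vcan most like Epb41l3, Pdgfc and P2ry10b, at 0.995, 0.994 and 0.993. Tgfbi was most like Dab2, Sirpa and Bcat1, at 0.967, 0.966 and 0.966, and Thbs1 most like Ly96, B4galt6 and Msn, at 0.956, 0.954 and 0.950. These correlations describe 8 group means from shared arrays, the 6 arrays that go against their labels included, and no test was made of them.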

How the data were processed

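The authors deposited 1 intensity for each probe set and array, not in log form, between 3.99 and 12789. The authors made them with RMA in Affymetrix Expression Console on the mm8 build, per the submitters' processing notes, which do not say how the log step of RMA was undone. Array medians ran from 141.3 to 180.9, a range of 0.356 in log2, and no scaling was added. The table held 16661 probe sets, and the 15928 with a gene symbol were tested.

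The intensities the authors deposited were turned to log2 here, and 1 limma fit (limma 3.58.1, R 4.3.3; lmFit and eBayes) held 8 group means over 24 arrays, with 16 residual and 4.62 prior degrees of freedom. Tests were two-sided, with Benjamini-Hochberg adjustment and a threshold of 0.05. No exact permutation test is given, since 3 arrays against 3 allow no p below 0.1. The labels call the arrays biological replicates and do not tie them to animals, and both middle digits were used, so p-values measure the spread between these samples.

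The members, the 11 lists (133 genes, 117 measured) and the tests were chosen with earlier results of these data known. All members are named; of each other list, up to 4 called genes with the widest differences in a comparison, or fewer; and for likeness, 3 genes a member. Of 84 pairs of arrays with the same replicate number, 10 had a correlation of residuals over 0.1. In 1 of 28 pairs of groups, MRL day 14 and B6 day 0, all 3 did (0.16, 0.15 and 0.25). These groups were not set against each other directly, and numbers were not taken as pairs. Alternatives were 2 other scalings (cyclic loess, median centring), an offset of 16, leaving out the dimmest 25% of probe sets, array weights, a trended and robust prior, a replicate block, all probe sets, the compared arrays alone, the fit without the 6 arrays labelled MRL day 0 and day 3, and each array left out.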

Additional observations from a re-analysis of the deposited data

Results flagged for a closer look

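The tests of MRL against B6 in the change from day 0, taken as labelled, passed for 17 combinations of member and day, each with a lower change in MRL. For day 3 the difference was -4.47 for Tnc, -2.03 for Thbs1, -2.03 for Vcan, -1.88 for Tgfbi, -0.62 for Fn1 and -0.53 for Postn. For day 7 it was -2.43 for Tnc, -1.10 for Vcan, -0.70 for Tgfbi, -0.57 for Thbs1 and -0.42 for Postn. For day 14 it was -2.80 for Tnc, -1.45 for Vcan, -1.30 for Thbs1, -0.89 for Tgfbi, -0.73 for Postn and -0.55 for Thbs2. Of the 17, those of Postn and Thbs1 for day 7 and Thbs2 for day 14 ended under cyclic loess scaling, at -0.045, -0.27 and -0.27, where Fn1 and Sparc were called with a higher change in MRL for days 7 and 14 (0.79, 0.56, 0.58 and 0.40). Leaving out single arrays ended the call of Thbs1 for day 7 (7 arrays in turn), Fn1 for day 3 (4 arrays) and Thbs2 for day 14 (1 array). Thbs2 and Sparc for day 3, outside the 17, were called with a lower change in MRL under median centring (-0.605 and -0.447) and array weights (-0.517 and -0.342). All 17 use the arrays labelled MRL day 0, and those of day 3 also use the arrays labelled MRL day 3, which go against their day labels. A test of single arrays far from their group was not made, since each group holds 3.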

How the results depend on the processing

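Of 2784 member differences recomputed under alternatives, 2640 kept their side of the threshold, 98 lost a call, 45 gained one and 1 changed sign: Postn, arrays labelled MRL day 3 minus B6 day 0, was -0.016 under cyclic loess scaling. Of the 2640, 53 changed sign with no call before or after. Of 348 counts of members called, 31 moved by more than 1.5 times. For day 14 minus day 7 of B6 the count was 1, and it was 2 under cyclic loess scaling, median centring, the offset or array weights, 0 with the compared arrays alone or without the 6 arrays labelled MRL day 0 and day 3, and 0 to 2 with single arrays left out. For the arrays labelled MRL day 0 minus B6 day 3 it was 1, and it was 3 under cyclic loess scaling or without dim probe sets, 2 under median centring, the offset or the trended prior, 0 with the compared arrays alone, and 0 to 2 with single arrays left out. For MRL minus B6 on day 14 it was 3, and 1 with the compared arrays alone. The test of MRL against B6 in day 14 minus day 7 called 0, and 2 with array weights. Single arrays left out gave counts of 3 to 5 for day 14 minus day 7 of MRL, 1 to 3 for MRL minus B6 on day 14, 4 to 7 between the arrays labelled MRL day 3 and day 0, and 2 to 5 for the arrays labelled MRL day 3 minus B6 day 0. The causes were not tested.

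The fit with the replicate number as a block called 6 members, not 7, on the arrays labelled MRL day 3 against B6 day 3 (Thbs2, adjusted p = 0.0559) and changed no other member's call. The share of all probe sets called moved by over 1.5 times in 12 comparisons, from 9.46% to between 5.61% and 19.5% for MRL minus B6 on day 7, from 5.27% to between 2.66% and 18.3% on day 14, from 3.54% to between 1.54% and 15.4% for day 14 minus day 7 of MRL, from 21.2% to between 12.0% and 34.1% for day 7 minus day 3 of B6, from 1.86% to between 0.998% and 3.50% for day 14 minus day 7 of B6, and from 0.264% to between 0.00628% and 1.26% for the strains' difference in that change. With the arrays labelled MRL day 3 it moved from 23.1% to 35.8% for MRL day 7, from 13.1% to between 8.27% and 33.7% for MRL day 14 and from 20.5% to 13.3% against those labelled MRL day 0. With the arrays labelled MRL day 0 it moved from 17.3% to between 10.9% and 29.1% for MRL day 7, from 17.7% to between 10.9% and 36.0% for MRL day 14 and from 10.9% to between 4.05% and 20.5% against B6 day 3. The mean over a gene's probe sets gave no value, since each member has 1. Arrays of 3 a group limit the precision.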
